A study of Mus musculus with 6 samples.

Results

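Of 24346 genes with a row in each file, 8 encode EF-hand calcium-binding proteins of neurons and were chosen by symbol: Calb1, Calb2, Pvalb, Scgn, Cabp1, Cabp2, Hpca and Ncald. All 8 had a row, and all 8 passed the filter on low values used for testing (a mean of at least 1 FPKM over the libraries). The values are messenger RNA levels in FPKM, read fragments of a gene scaled by its transcript length and by the size of the library, so levels of different genes can be set beside each other. The series holds 6 mouse libraries labelled as brain at embryonic day 17.5. In 3 of them the genotype is given as miR-124a-1/2 DKO, a double knockout of 2 of the genes for the neuronal microRNA miR-124a. The other 3 are labelled control with the genotype miR-124a-1+/-, so the controls also lack 1 copy of miR-124a-1 and no wild type enters the comparison. The labels name no strain, sex or litter, and nothing says whether each library is 1 animal, so the tests measure the spread between these libraries only.

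An EF-hand is a helix-loop-helix that holds a calcium ion in its loop. Some EF-hand proteins are mainly buffers, which take up calcium that enters a neuron and shape how long the signal lasts. Among them are calbindin (Calb1), calretinin (Calb2) and parvalbumin (Pvalb). Secretagogin (Scgn) is counted with these buffers here, though it also has sensor-like properties. Others are sensors, which change shape on binding calcium and then act on channels or membranes: the CaBP proteins (Cabp1, Cabp2), hippocalcin (Hpca) and neurocalcin delta (Ncald). Each is made by some classes of neuron and not by others, so antibodies to several of them are used as class markers. In the cortex, parvalbumin, calretinin and calbindin mark interneurons. In the retina, calbindin marks horizontal cells, calretinin marks amacrine and ganglion cells, and secretagogin marks cone bipolar cells.

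The marker genes of the libraries went against the labelled tissue and age. The 6 rod photoreceptor markers summed to between 12420 and 14220 FPKM in a library, and the 7 bipolar cell markers to between 758 and 867 FPKM. The 6 markers of dividing cells summed to 1.03 to 2.94 FPKM, and each of them had a mean under 1 FPKM. Of 8 markers of cortical and hippocampal neurons 4 had a mean under 1 FPKM, Emx1 was listed at 0 in all libraries, and Prox1, which horizontal and other retinal cells also make, gave most of the sum. Of 7 cortical interneuron markers 4 had a mean under 1 FPKM, with Dlx5 listed at 0, while the neuropeptide genes Npy, Vip and Sst had means of 45.9, 7.45 and 6.95 FPKM and gave nearly all of the sum of 51.7 to 66.0 FPKM. The cerebellar sum came almost wholly from Pcp2, a gene that rod bipolar cells also make, and Gabra6 was listed at 0. These levels held in both groups, so the groups are named only by their labels. The transcript that carries miR-124a-1, listed as Mir124a-1hg, lay at 464 to 510 FPKM in the libraries labelled DKO and 420 to 528 FPKM in the libraries labelled control. That of miR-124a-2, listed as 2610100L16Rik, lay at 69.9 to 98.0 and 80.3 to 115 FPKM. The groups overlapped for both hosts, so the genotype labels could not be checked from them. The file headers call the DKO columns CKO, which the labels do not explain. The depth of each library is not given. The steps between the lowest values put the libraries at 0.956 to 1.24 times the depth of DKO replicate 1.

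**Figure D1:**
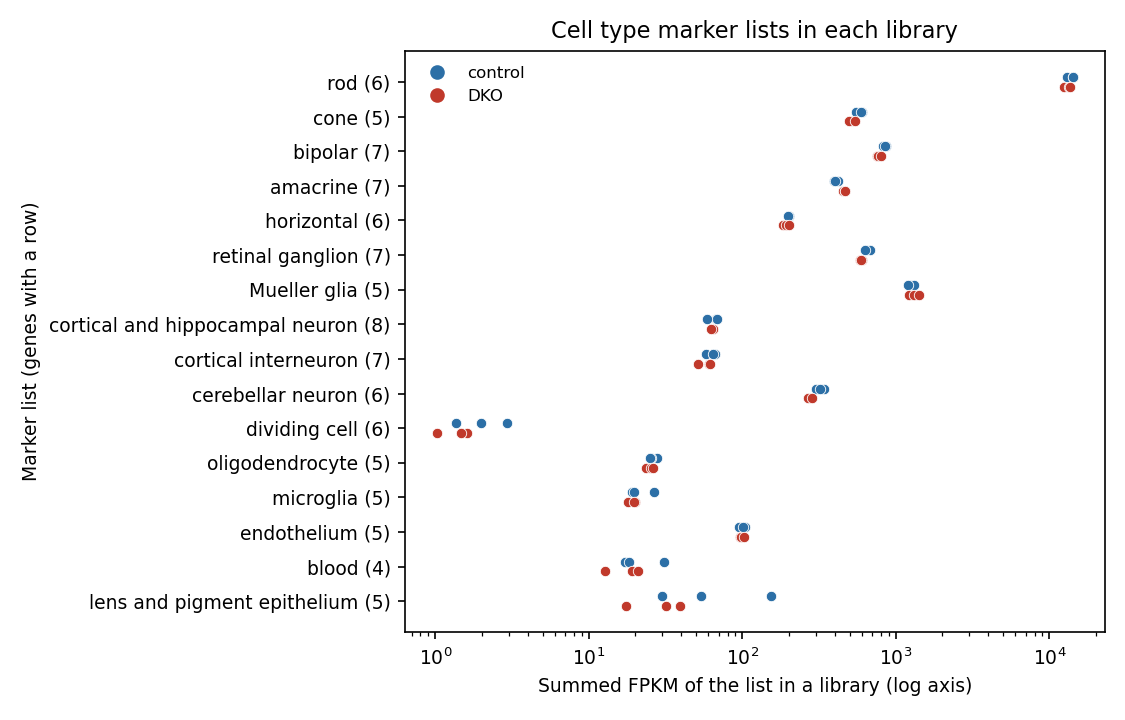
Summed FPKM (log axis) of 16 lists of cell type markers, 1 point per library, with the number of genes that have a row in brackets. Rod markers lie between 12420 and 14220 FPKM and markers of dividing cells between 1.03 and 2.94 FPKM in both groups; Prox1 is in the horizontal and the cortical list, and Pcp2 in the bipolar and the cerebellar list.

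The 8 genes spanned a wide range of levels and stood in the same order in all 6 libraries. Calb2 was the highest, with a mean of 306.6 FPKM over the libraries, above 98.8% of the 13215 tested genes. Hpca followed at 83.4 FPKM, Cabp1 at 66.4 FPKM, Scgn at 53.2 FPKM, Ncald at 43.7 FPKM and Calb1 at 30.2 FPKM. Cabp2, at 13.3 FPKM, stood near the middle of the tested genes (above 51.8% of them). Pvalb was the lowest at 4.57 FPKM, above 22.0% of them. The ranges of neighbours in this order did not overlap over the 6 libraries. The smallest step was that from Scgn to Ncald, a ratio of means of 1.22. Calb2 alone made up 49.1% to 52.7% of the summed FPKM of the 8 genes in a library.

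**Figure D2:**
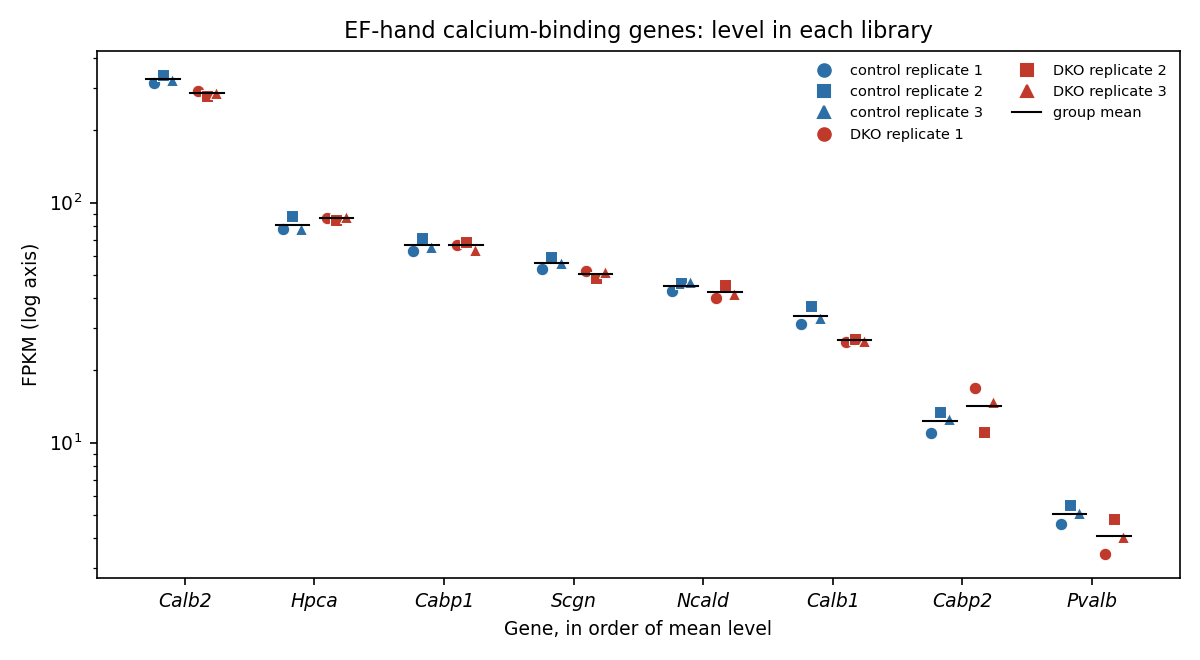
FPKM on a log axis of each of the 8 genes, 1 point per library, in order of mean level, with a line at each group mean. Calb2 lies at 279 to 341 FPKM and Pvalb at 3.43 to 5.47 FPKM; the control points lie above the DKO points for Calb2, Scgn and Calb1.

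In the comparison of DKO with control, all 4 buffer genes had lower mean levels in the libraries labelled DKO. For 3 of them, Calb1, Calb2 and Scgn, every DKO value lay below every control value. None of the 8 genes passed the test across all genes (limma on log2(FPKM + 1), Benjamini-Hochberg adjusted p of at least 0.304 for each), where 3 of 13215 genes, or 0.0227%, passed. At an unadjusted limma p under 0.05 there were 3 of the 8 genes, all lower in DKO, against 4.36% of tested genes lower and 7.88% in either direction. Groups did not overlap in the same 3 of 8 genes, again all lower in DKO, against 6.95% of tested genes lower and 13.9% in either direction. The median log2 fold change was -0.12 over the 8 genes, -0.22 over the 4 buffers, 0.04 over the 4 sensors and -0.0016 over all tested genes. The 4 buffers can share cells and so are not independent of each other. In whole tissue, fewer cells of a type and less RNA per cell cannot be told apart.

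Calb1, the gene of calbindin (ENSMUSG00000028222.2, GRCm38 chromosome 4, 15881264 to 15908064, plus strand, protein coding), had the largest difference of the 8. It measured 26.2, 27.0 and 26.6 FPKM in DKO replicates 1 to 3 and 31.1, 37.1 and 33.0 FPKM in control replicates 1 to 3. The DKO values lay close together and all below the lowest control, while the controls were spread by control replicate 2. The means were 26.6 ± 0.401 and 33.8 ± 3.09 FPKM (SD, n = 3 each), which puts DKO at 78.9% of control. The log2 fold change was -0.33 with SE 0.068 and a 95% confidence interval of -0.48 to -0.17 (limma, Benjamini-Hochberg adjusted p = 0.304). By unadjusted p, 0.00143 in limma, Calb1 stood at rank 60 of 13215.

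Calb2, the gene of calretinin (ENSMUSG00000003657.9, chromosome 8, 110137502 to 110168210, minus strand), is the most abundant of the 8. Its values were 292, 279 and 288 FPKM in DKO replicates 1 to 3 and 315, 341 and 324 FPKM in control replicates 1 to 3. The groups did not overlap, and again control replicate 2 was the highest. The means were 286 ± 6.53 and 327 ± 13.6 FPKM (SD, n = 3 each), or 87.6% of control. The log2 fold change was -0.19 with SE 0.047 and a 95% confidence interval of -0.30 to -0.081 (limma, Benjamini-Hochberg adjusted p = 0.388). Calb2 and Calb1 did not keep a fixed ratio: Calb2 was 10.3 to 11.1 times Calb1 in the DKO libraries and 9.19 to 10.1 times Calb1 in the control libraries.

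Scgn, the gene of secretagogin (ENSMUSG00000021337.8, chromosome 13, 23953456 to 23991214, minus strand), measured 51.7, 48.3 and 51.3 FPKM in DKO replicates 1 to 3. In control replicates 1 to 3 it measured 52.8, 59.4 and 55.8 FPKM. The groups were separate by a narrow gap, between DKO replicate 1 and control replicate 1. The means were 50.4 ± 1.83 and 56.0 ± 3.30 FPKM (SD, n = 3 each), with a log2 fold change of -0.15, SE 0.056 and a 95% confidence interval of -0.28 to -0.018 (limma, Benjamini-Hochberg adjusted p = 0.592). Unlike for Calb1, the ratio of Calb2 to Scgn overlapped between the groups, at 5.61 to 5.78 in DKO and 5.74 to 5.95 in control.

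Pvalb, the gene of parvalbumin (ENSMUSG00000005716.16, chromosome 15, 78191114 to 78206400, minus strand), was low in all libraries. It measured 3.43, 4.78 and 4.05 FPKM in DKO replicates 1 to 3 and 4.59, 5.47 and 5.07 FPKM in control replicates 1 to 3. DKO replicate 2 lay above control replicate 1, so the groups overlapped. The log2 fold change was -0.26 with SE 0.12 and a 95% confidence interval of -0.53 to 0.019, on a scale that understates the change of such a low gene (limma, Benjamini-Hochberg adjusted p = 0.660). Without DKO replicate 1, the lowest library, it was -0.16.

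Control replicate 2 held the highest of the 6 values for 6 of the 8 genes, the 4 buffers, Cabp1 and Hpca. Without that library the log2 fold changes were -0.26 for Calb1, -0.16 for Calb2, -0.11 for Scgn and -0.21 for Pvalb. The 4 values kept their sign. In the same library the lens genes Cryaa and Crygd were highest, at 103 and 49.9 FPKM, against 9.22 to 35.1 and 6.31 to 17.5 FPKM in the others. Their part in the result was not tested.

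**Figure D3:**
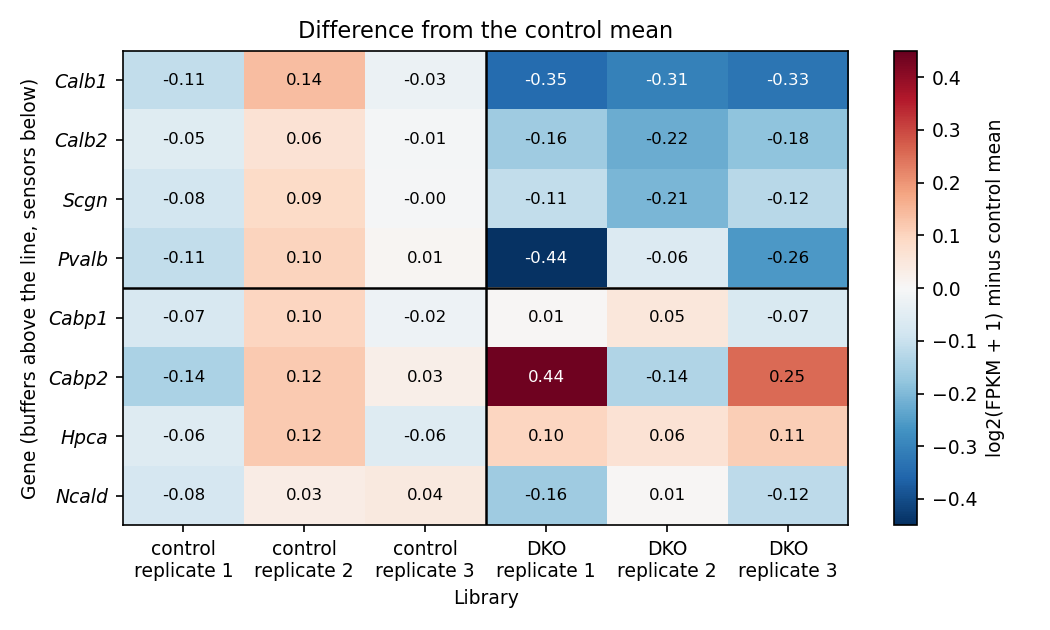
Each cell gives log2(FPKM + 1) of a gene in a library minus the mean of the 3 control libraries, blue for lower and red for higher, buffers above the line and sensors below. The DKO cells of Calb1 run from -0.35 to -0.31 and those of Calb2 from -0.22 to -0.16, while those of Cabp2 run from -0.14 to 0.44.

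Summed levels of retinal cell class markers are given beside these values, since several of the classes hold these buffers. The 7 markers of retinal ganglion cells summed to 582 to 603 FPKM in DKO and 630 to 681 FPKM in control, and those of bipolar cells to 758 to 802 and 823 to 867 FPKM. Both sums were lower in DKO without overlap, as was the sum of the 5 cone markers, at 492 to 544 against 553 to 598 FPKM. Of single genes, 1 of 7 ganglion, 2 of 7 bipolar and 0 of 5 cone markers had a log2 fold change above 0. Groups did not overlap for 4, 3 and 2 of them, all lower in DKO, against 6.95% of tested genes lower and 13.9% in either direction. Abundant genes weigh most in such sums. Nefl had means of 221 FPKM in DKO and 266 FPKM in control, and Pcp2 260 and 302 FPKM. Sncg (216 and 215 FPKM) and Prkca (52.4 FPKM in both) hardly differed. The 7 amacrine markers went the other way, at 453 to 468 FPKM in DKO against 397 to 420 FPKM in control. Groups did not overlap for 6 of these 7, all higher in DKO, against the same 13.9% of tested genes in either direction. The 6 horizontal cell markers overlapped, at 183 to 200 against 199 to 202 FPKM, with Ptf1a at 0 in 5 of 6 libraries. Sept4 and Prox1, with means of 135 and 52.5 FPKM, gave most of that sum. Lhx1, a transcription factor of horizontal cells, lay at 3.52 to 3.99 FPKM in DKO and 4.45 to 5.01 FPKM in control, while Onecut1, another, lay at 3.30 to 3.76 and 2.56 to 3.36 FPKM. None of the tested genes of these 5 lists passed limma after Benjamini-Hochberg adjustment, and their part in the values of Calb1, Calb2 and Scgn was not tested.

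The 4 sensors showed no common direction. The groups overlapped for each of them, where 13.9% of all tested genes did not overlap. Cabp1, which makes CaBP1 and the longer caldendrin (ENSMUSG00000029544.16, chromosome 5, 115168689 to 115194381, minus strand), measured 66.7, 68.9 and 63.3 FPKM in DKO replicates 1 to 3. In control replicates 1 to 3 it measured 63.2, 71.1 and 65.5 FPKM. Both groups span nearly the same values. On the log2 scale DKO minus control was -0.0048, 95% confidence interval -0.14 to 0.13 (limma, Benjamini-Hochberg adjusted p = 0.989). The files give 1 value per gene, so the 2 products are not told apart.

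Hpca, the gene of hippocalcin, a sensor that moves to membranes when it binds calcium (ENSMUSG00000028785.13, chromosome 4, 129111570 to 129122036, minus strand), measured 86.4, 84.4 and 87.3 FPKM in DKO replicates 1 to 3. In control replicates 1 to 3 it measured 77.5, 87.6 and 77.4 FPKM. All 3 DKO values lay above control replicates 1 and 3 and below control replicate 2. The difference on the log2 scale was 0.092, 95% confidence interval -0.039 to 0.22 (limma, Benjamini-Hochberg adjusted p = 0.757), and 0.15 without control replicate 2. Exons of Hpca overlap those of Tmem54 on the other strand in GENCODE M21, but Tmem54 is listed at 0 in all libraries.

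Ncald, the gene of neurocalcin delta, a close relative of hippocalcin (ENSMUSG00000051359.15, chromosome 15, 37366175 to 37792570, minus strand), measured 40.2, 45.3 and 41.5 FPKM in DKO replicates 1 to 3. In control replicates 1 to 3 it measured 42.7, 46.2 and 46.5 FPKM. DKO replicate 2 lay among the controls. DKO minus control came to -0.090 on the log2 scale, 95% confidence interval -0.23 to 0.050 (limma, Benjamini-Hochberg adjusted p = 0.769). It was -0.055 without DKO replicate 1 and -0.14 without DKO replicate 2. Exons of Ncald overlap the annotated antisense gene Gm28221 and, on the same strand, the processed transcript Gm49397, neither of which is used here. Whether reads were counted by strand is not given in the sources used here.

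Cabp2, a CaBP protein that modulates calcium channels in sensory cells (ENSMUSG00000024857.16, chromosome 19, 4081578 to 4087340, plus strand), was the most variable of the 8. It measured 16.9, 11.1 and 14.8 FPKM in DKO replicates 1 to 3 and 10.99, 13.4 and 12.5 FPKM in control replicates 1 to 3. Within DKO the coefficient of variation was 20.9%, against 1.51% for Calb1 in the same libraries. Its log2 fold change of 0.18 had a 95% confidence interval of -0.15 to 0.51 (limma, Benjamini-Hochberg adjusted p = 0.790). It moved to 0.058 without DKO replicate 1 and 0.34 without DKO replicate 2.

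Other genes of calcium binding and transport were taken from 6 lists with 53 genes, of which 48 were tested. None passed limma after Benjamini-Hochberg adjustment (adjusted p of at least 0.196). At an unadjusted p under 0.05 there were 3 higher and 5 lower in DKO, 8 of 48, against 7.88% of all tested genes. Groups did not overlap for 14 of the 48, 6 higher and 8 lower, against 13.9% of all tested genes. The median log2 fold change of the 48 was -0.0063.

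Of the 11 other neuronal calcium sensors, the family of Hpca and Ncald, 6 were above 0 and 5 below, with a median of 0.0014. The photoreceptor members were by far the most abundant: Rcvrn, the gene of recoverin, which acts on rhodopsin kinase, had a mean of 1039 FPKM and a log2 fold change of 0.0014. Guca1b, an activator of retinal guanylate cyclase, had a mean of 373 FPKM and a log2 fold change of -0.0050. Kcnip4, a subunit of potassium channels, had the smallest p of the family. It lay at 18.9 to 20.4 FPKM in DKO and 21.6 to 23.6 FPKM in control, a log2 fold change of -0.20 (limma, Benjamini-Hochberg adjusted p = 0.504). Ncs1, the gene of neuronal calcium sensor 1, lay at 20.04 to 20.9 against 18.0 to 19.7 FPKM (0.13, Benjamini-Hochberg adjusted p = 0.641 from limma).

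Among the relatives of Cabp1 and Cabp2, Cabp4, which acts at photoreceptor synapses, had a mean of 105.9 FPKM and a log2 fold change of 0.021. Cabp5, a bipolar cell protein, had a mean of 67.8 FPKM and -0.064 (-0.029 without DKO replicate 1), and Cabp7 was under the filter. Caln1, the gene of calneuron 1, lay at 10.4 to 11.5 FPKM in DKO and 8.52 to 9.23 FPKM in control, without overlap (a log2 difference of 0.28 with a Benjamini-Hochberg adjusted p = 0.395 from limma). Of 7 tested calmodulin and calcineurin B genes 2 were above 0 and 5 below. Calm2, a calmodulin gene, and Ppp3r1, the regulatory subunit of the phosphatase calcineurin, had log2 fold changes of -0.091 and -0.089. The low gene Calml4 had 0.53, at 2.24 to 2.71 against 0.769 to 1.75 FPKM (limma, Benjamini-Hochberg adjusted p = 0.572). Without control replicate 3 the value was 0.31 for Calml4 and -0.041 for Calm2.

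Necab1, an EF-hand protein of neurons from the NECAB family, had the smallest p of the 48. It measured 22.0, 22.3 and 21.3 FPKM in DKO replicates 1 to 3 and 16.4, 18.1 and 16.8 FPKM in control replicates 1 to 3. All DKO values lay above all control values, the opposite of Calb1. The log2 fold change was 0.34 with SE 0.057 and a 95% confidence interval of 0.21 to 0.47 (limma, Benjamini-Hochberg adjusted p = 0.196). Its relative Necab2 lay on the other side, at 25.3 to 27.7 FPKM in DKO and 28.4 to 29.3 FPKM in control (-0.14, Benjamini-Hochberg adjusted p = 0.592 from limma). The buffers S100g and Ocm were listed at 0 in 6 and 4 of the 6 libraries. Of the 7 tested genes in the list of other EF-hand buffers and NECABs, 2 were above 0 and 5 below. Their median log2 fold change was -0.0064.

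The list named for S100 proteins, small EF-hand dimers of glia and other cells, had 1 of 9 genes above 0 and 8 below. Its median log2 fold change was -0.17, and 50.5% of all tested genes were below 0. Groups did not overlap for 4 of the 9, all lower in DKO, against 6.95% of tested genes lower and 13.9% in either direction. The list includes S100pbp, a binding protein without the S100 fold. S100a11 lay at 17.2 to 19.97 FPKM in DKO and 20.4 to 27.3 FPKM in control (-0.38, limma, Benjamini-Hochberg adjusted p = 0.467). S100a16 lay at 19.1 to 22.9 against 24.4 to 26.9 FPKM (-0.28, adjusted p = 0.427), and S100a10, the most abundant, at 33.2 to 34.9 against 35.2 to 41.0 FPKM (-0.15, adjusted p = 0.621), both from limma with Benjamini-Hochberg adjustment. Without control replicate 3 the value of S100a10 was -0.092. The summed Müller glia markers overlapped, at 1220 to 1403 FPKM in DKO and 1205 to 1311 FPKM in control. Glul, with a mean of 968 FPKM, gave most of that sum. The part of cell types in the values of the S100 list was not tested.

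The genes of calcium extrusion and store pumps differed least. Of 11 tested, 7 were above 0 and 4 below, and the values ran from -0.053 to 0.16. The groups overlapped for all 11, where 13.9% of all tested genes did not overlap. Slc24a1, the sodium, calcium and potassium exchanger of rods, had a mean of 222.8 FPKM and a log2 fold change of 0.019. Atp2a2, the calcium pump SERCA2 of the endoplasmic reticulum, had a mean of 97.1 FPKM and 0.016. Slc8a1, a sodium and calcium exchanger, and Atp2b4, a plasma membrane calcium pump, had 0.050 and 0.16. For Atp2b4 the value was 0.24 without DKO replicate 1 and 0.086 without DKO replicate 3.

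**Figure D4:**
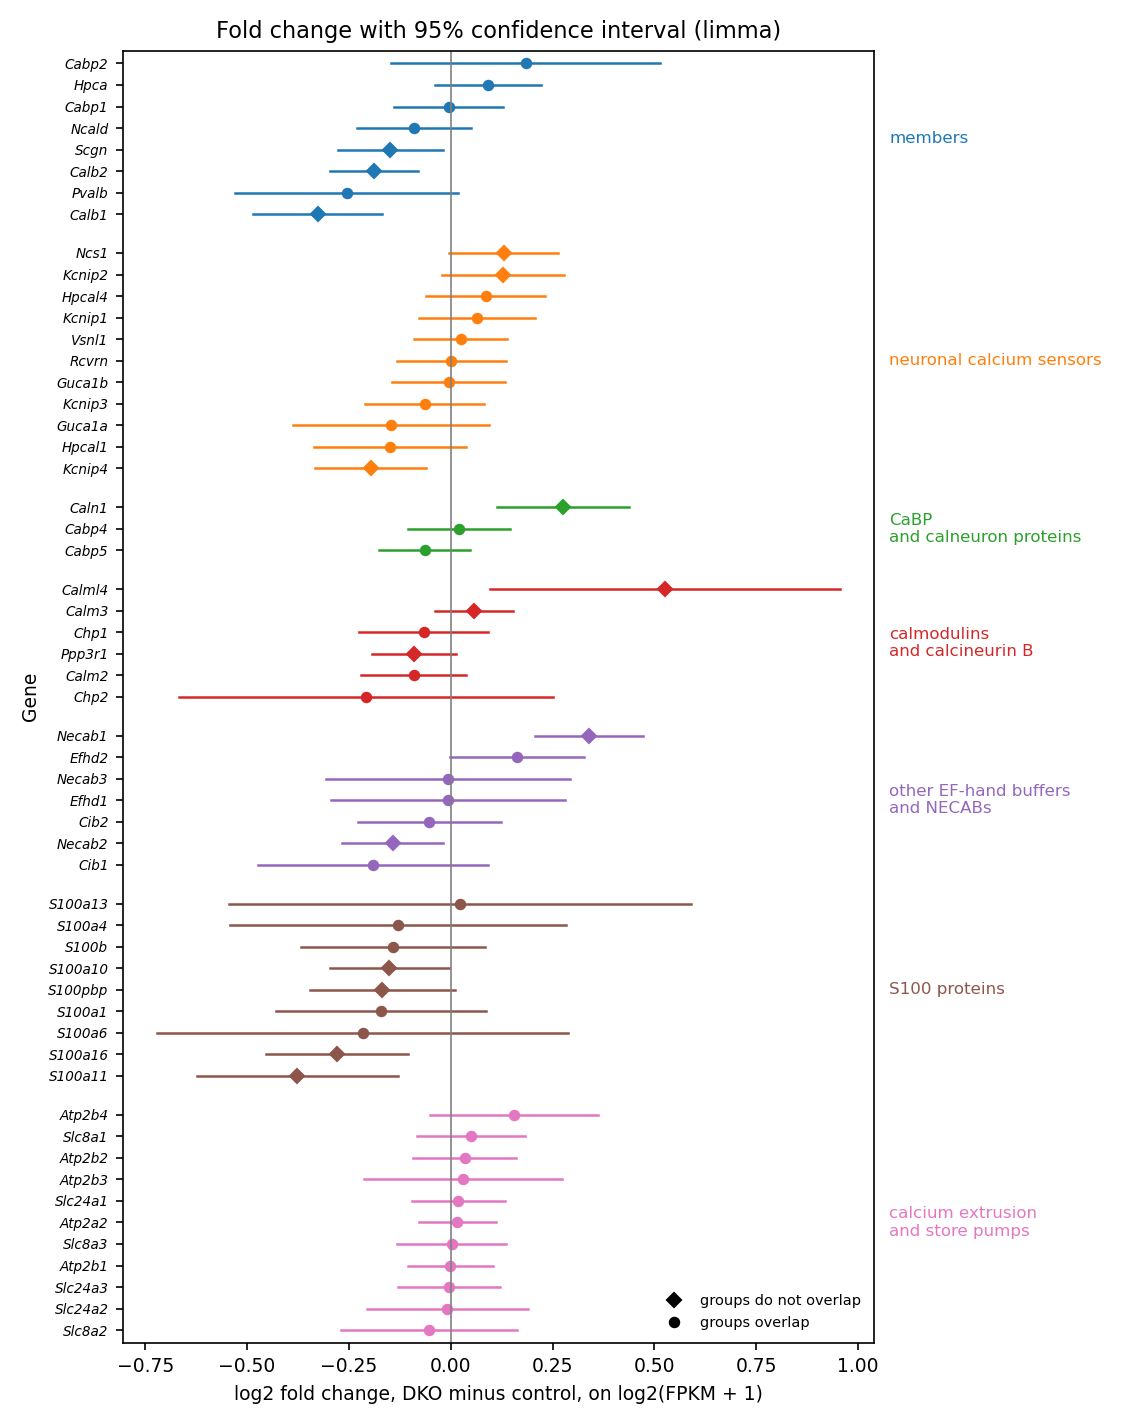
Log2 fold change (DKO minus control, log2(FPKM + 1) scale) with the 95% confidence interval of limma for the 8 genes, named members in the plot, and 47 of the 48 other tested genes by list. Diamonds are genes whose groups do not overlap; Calb1 (-0.33) and Necab1 (0.34) lie on opposite sides, and no gene shown passed the adjusted threshold.

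Promoter windows of RefSeq genes on GRCm38.p6 were found for 5 of the 8 genes, and not for Calb1, Calb2 or Ncald. The windows of Scgn and Pvalb are shown because these are the buffers with an entry, and their mean levels, like those of Calb1 and Calb2, were lower in the libraries labelled DKO, with overlap for Pvalb. For Pvalb the table holds 2 starts, and the outer one is shown. Each runs over the 250 bases before the start of the gene, 5′ to 3′ on the gene's own strand (minus). Scgn lies at chr13:23991215-23991464, and capitals mark a GC box, GGGCGG. Pvalb lies at chr15:78206401-78206650, and capitals mark a match to the AP-2 motif GCCNNNGGC.
Scgn: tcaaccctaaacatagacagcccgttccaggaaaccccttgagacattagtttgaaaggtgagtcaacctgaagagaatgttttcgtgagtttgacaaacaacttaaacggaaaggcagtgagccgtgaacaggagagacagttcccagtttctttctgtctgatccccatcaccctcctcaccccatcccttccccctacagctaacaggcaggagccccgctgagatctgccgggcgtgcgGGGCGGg
Pvalb: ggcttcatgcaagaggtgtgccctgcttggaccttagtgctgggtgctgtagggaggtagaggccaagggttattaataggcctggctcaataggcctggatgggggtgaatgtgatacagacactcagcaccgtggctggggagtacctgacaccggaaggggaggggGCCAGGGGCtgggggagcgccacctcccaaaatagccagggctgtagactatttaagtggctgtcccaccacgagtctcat
Both strands were searched, and the 2 motifs did not overlap each other in these windows. Of 32851 promoter windows of the same length, 32.7% hold the GC box and 13.7% the AP-2 motif. Neither window holds the CRX and OTX2 core TAATCC (6.25% of all windows), the E-box CANNTG (66.2%), the TATA box TATAAA (12.4%) or the cyclic AMP response element TGACGTCA (1.55%). The G+C content was 53.2% for Scgn and 58.4% for Pvalb, against a median of 52.4% over all windows. A match is a description of letters and not of binding.

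For each of the 8 genes the single named gene with the nearest pattern over the 6 libraries was taken, by the root mean square difference between profiles of log2(FPKM + 1) centred on their own means. The nearest to Calb1 was Spp1 (0.033, among 6590 candidates) and the nearest to Calb2 was Lactbl1 (0.025). The nearest to Scgn was Carm1 (0.014), to Pvalb Apoo (0.041), to Cabp1 Stard5 (0.012), to Cabp2 Parm1 (0.056), to Hpca Diras1 (0.011) and to Ncald Fam104a (0.021). With 6 libraries many genes lie almost as near: 71 lay within 0.05 of Calb2 and 281 within 0.05 of Hpca. The count was 2 for Calb1, 2 for Pvalb and 0 for Cabp2. It depends on the spread of the gene itself, since a fixed distance takes in more rows around a flat gene. The SD of log2(FPKM + 1) was 0.083 for Hpca and 0.11 for Calb2. It was 0.20 for Calb1, 0.20 for Pvalb and 0.23 for Cabp2.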

How the data were processed

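The authors deposited 1 table per library, in which each gene symbol has its FPKM (unit per the file headers). The submitters' processing notes name TopHat2 2.1.1, Bowtie2, Cuffdiff 2.2.1 and the build mm10. RNA was taken up in TRIzol and made into stranded mRNA libraries, per the labels' protocols. For the annotation and filters, the steps were not given in the sources used here. Median-of-ratios factors of the deposited values were 1.00 in all 6 libraries, and no pair of libraries was identical. Groups came from the titles, 3 libraries each.

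Genes with a mean of at least 1 FPKM (13215) were tested on log2(FPKM + 1), a pseudocount of 1, with limma 3.58.1 in R 4.3.3 (lmFit, eBayes with a trend), DKO minus control. Benjamini-Hochberg adjustment ran over all of them, with a threshold of 0.05. The fit was tested on simulated data with changes larger than those of the 8 genes. That test does not show whether changes of their size would be found. FPKM carry no read totals, so precision comes from the spread over 3 libraries. The 8 genes, the lists and the tests were chosen with earlier results of these data known. The rule named the 8 genes and, from each list, the 2 of highest mean and the 2 of smallest p, plus 1 gene of nearest pattern for each of the 8. A gene that the rule takes is not reported here. Other genes were named after their values were seen. Coordinates are from GENCODE M21 (GRCm38, the assembly of mm10). Python 3.11.15 with pandas 2.3.3 and NumPy 2.4.6 was used for the rest.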

Additional observations from a re-analysis of the deposited data

How the results depend on the processing

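None of the 8 genes passed the adjusted threshold in any of the 17 alternatives (limma with Benjamini-Hochberg adjustment, lowest adjusted p = 0.194), nor did any of the 53 other calcium genes. Calb1, Calb2, Scgn, Pvalb, Cabp2, Hpca and Ncald kept their direction in each alternative that tested them; Pvalb was not tested at a mean of at least 5 FPKM. Over the alternatives the log2 fold change ran from -0.38 to -0.26 for Calb1, -0.22 to -0.16 for Calb2, -0.19 to -0.11 for Scgn, -0.35 to -0.16 for Pvalb and 0.048 to 0.34 for Cabp2, the lowest with arrayWeights. Cabp1 turned to 0.017 with quantile normalization and ran from -0.041 to 0.043 when single libraries were left out. Rcvrn turned to -0.0037 and Guca1b to 0.0036 with quantile normalization, and Cabp4 to -0.011 with arrayWeights. When single libraries were left out, Rcvrn ran from -0.027 to 0.046, Guca1b from -0.049 to 0.053, Cabp4 from -0.024 to 0.059, Slc24a1 from -0.016 to 0.058 and Atp2a2 from -0.0041 to 0.031. The count of called genes, 3 of all tested, was 25 with no filter and 1 with eBayes without a trend, and the cause was not tested. It was 1 to 4 without single libraries, with 1 without control replicate 2. With replicate number as a block it was 2, and 0 of the 8 genes passed. Same-numbered libraries had deviations correlated at 0.072, 0.0063 and 0.10, and differently numbered ones at -0.12 to 0.036. Whether the numbers mark pairs cannot be told from these values. Median-of-ratios scaling divides all genes of a library by 1 factor, so it could not change the order of the 8 levels within a library. No gene of the 8 was under the filter, so the permutation test planned for such genes was not run.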

Other observations

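Calb1 and Necab1, the calcium-binding genes of smallest p among the 8 and the 48, lie on the same chromosome with a gap of 0.731 Mb between them, and their values differ in opposite directions (log2 fold changes of -0.33 and 0.34). Of the 7 tested neighbours within 1 Mb of Calb1, Necab1, already named for its p, was the 1 gene with an unadjusted limma p under 0.05, against 7.88% of all tested genes. Decr1, separated from Calb1 by a gap of 9176 bases, had a log2 fold change of 0.11, and Osgin2 had -0.0035. Around Calb2, 1 of 26 neighbours within 1 Mb had an unadjusted p under 0.05, and around Scgn 0 of 14. Pvalb had 4 of 29 and Ncald 0 of 9, Hpca 2 of 34, Cabp1 2 of 35 and Cabp2 2 of 58, to be read against the same 7.88%. None of these neighbours passed limma after Benjamini-Hochberg adjustment.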
